A study of Homo sapiens with 10 samples.

Results

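The genes described here are 7 parts of the NRF2 antioxidant response, listed by name: NFE2L2, KEAP1, SQSTM1, HMOX1, NQO1, SRXN1 and ME1. The deposited table of 12540 genes held 6 of them, each as 1 row with that symbol, and all 6 were tested among 12520 genes. SRXN1 had no row and is not analysed here. Of the exon bases annotated to SRXN1, 85.0% are shared with AL121758.1, a protein-coding gene on the same strand. Why SRXN1 had no row was not tested, so its absence is not a measure of its level. The RNA came from SRA01-04, human lens epithelial cells that a viral oncogene keeps dividing. In 5 libraries the cells carried an empty plasmid (EV1 to EV5) and in the other 5 a RORα plasmid (OE1 to OE5; RORA encodes this nuclear receptor). All cells, controls included, had been transfected and, 48 h later, exposed to 10 µM selenite for 24 h. There was no group without selenite or without transfection, so nothing below measures the response to selenite itself.

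NRF2, the protein of NFE2L2, is a transcription factor that binds antioxidant response elements as a partner of the small MAF proteins. KEAP1 holds it in the cytoplasm and, as the adaptor of a CUL3 ubiquitin ligase, has it degraded until oxidants or electrophiles modify cysteines of KEAP1. Selenite oxidises thiols, and its injection into young rodents is a standard model of cataract. SQSTM1, the autophagy adaptor p62, binds KEAP1 at the site that NRF2 uses and is itself an NRF2 target. HMOX1 (heme oxygenase), NQO1 (a quinone reductase) and ME1 (cytosolic malic enzyme, a source of NADPH) are target genes by which NRF2 activity is often read. NRF2 is regulated largely through the stability of its protein, which messenger RNA does not measure.

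The transcripts of the regulator and its inhibitor stayed close to the control level, whereas the targets divided. NFE2L2 and KEAP1 had log2 fold changes of 0.08 and 0.04 and did not pass the test. ME1 fell 2.64-fold, HMOX1 1.598-fold and NQO1 1.41-fold, while SQSTM1 rose 1.85-fold (n = 5 libraries per group). By the edgeR quasi-likelihood test, with Benjamini-Hochberg adjusted p under 0.05 over all genes, 1 of the 6 rose, 3 fell and 2 did not pass. That is 66.7% of these genes beside a background of 56.1% of all genes called, 28.6% higher and 27.5% lower, a share too near the background to be a result about them. The groups did not overlap for 4 of the 6, and for 39.6% of all genes. The median log2 fold change was -0.23 over the 6 genes and 0.00 over all genes tested.

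Sequence before the annotated starts is shown for ME1 and NQO1, which fell, SQSTM1, which rose, and KEAP1, which did neither, to show which of them carry an antioxidant response element core close to the start. Each run is the 250 bases before a start in RefSeq (GRCh38.p14), written 5′ to 3′ on the strand of the gene. Capitals mark matches, on either strand, to the antioxidant response element core TGACNNNGC or to AGGTCA, the hexamer that ROR proteins bind.
ME1 (chr6:83431052-83431301, minus strand): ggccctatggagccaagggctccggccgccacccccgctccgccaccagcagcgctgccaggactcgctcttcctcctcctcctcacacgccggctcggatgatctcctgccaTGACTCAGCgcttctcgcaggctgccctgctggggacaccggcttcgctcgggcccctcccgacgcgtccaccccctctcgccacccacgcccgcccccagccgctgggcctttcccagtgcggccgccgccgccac
NQO1 (chr16:69726561-69726810, minus strand): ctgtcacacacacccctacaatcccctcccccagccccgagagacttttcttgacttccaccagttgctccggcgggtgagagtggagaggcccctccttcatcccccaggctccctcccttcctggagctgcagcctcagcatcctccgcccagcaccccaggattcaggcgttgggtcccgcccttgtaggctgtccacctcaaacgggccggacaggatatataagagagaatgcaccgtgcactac
SQSTM1, downstream start (chr5:179820655-179820904, plus strand): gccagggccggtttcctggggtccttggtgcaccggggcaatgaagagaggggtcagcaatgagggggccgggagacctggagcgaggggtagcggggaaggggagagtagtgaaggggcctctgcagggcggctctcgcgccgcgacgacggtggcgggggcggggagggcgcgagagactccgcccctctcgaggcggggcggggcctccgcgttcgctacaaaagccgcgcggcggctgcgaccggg
KEAP1, downstream start (chr19:10502772-10503021, minus strand): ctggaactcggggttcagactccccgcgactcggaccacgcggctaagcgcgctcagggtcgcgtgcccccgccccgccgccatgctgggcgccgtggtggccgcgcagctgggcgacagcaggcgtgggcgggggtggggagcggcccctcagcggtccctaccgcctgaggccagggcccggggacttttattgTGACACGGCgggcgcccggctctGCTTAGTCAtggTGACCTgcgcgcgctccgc
The ME1 run held 1 match to the antioxidant core, TGACTCAGC, whose first base lies at position -137 from the start and whose first 7 bases are also an AP-1 site (TGANTCA). The KEAP1 run held 2 matches to the antioxidant core, from positions -54 and -31, and 1 to the ROR hexamer, from position -19. No match to either lay in the NQO1 run or in the SQSTM1 run shown. RefSeq gave 9 such windows for 5 of the 6 genes, and HMOX1 was not among them. Over the 9 windows the antioxidant core was found in 2 and the ROR hexamer in 2, the other being the most upstream SQSTM1 window. The ATF4 composite site TGATGNAA was found in none. Of 35116 RefSeq windows of this length, 10.9% held the antioxidant core, 12.1% the ROR hexamer, 6.57% the AP-1 site and 3.14% the ATF4 composite site. A match is a description of letters and does not show binding, and a window without one says nothing of elements farther away.

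Counts per library ran from 17475342 to 21956761, and levels are given as CPM, counts per 1000000 of the TMM-scaled library total. RORA itself stood between 11.2 and 17.0 CPM in the empty vector libraries and between 38.6 and 44.0 CPM in the overexpression libraries, as the labels have it. Of 14 lens epithelial markers 5 had a row. PAX6, SIX3 and GJA1 did not pass the test, TDRD7 rose from 45.7 to 61.0 CPM, and CRYAB fell from 1.43 to 0.370 CPM. With RORα, CRYAB was as low as 0.137 CPM, within the 0.137 to 0.172 CPM that a count of 0 allows. The summed level of the 5 was 124.8 to 131.3 CPM in the controls and 137.9 to 153.9 CPM with RORα. Other defining markers of lens epithelium, such as FOXE3, PROX1, CRYAA and CDH1, had no row. Fibroblast markers moved with the groups: all 8 with a row, of 11 listed, fell, beside 27.5% of all genes. Their summed level went from between 3098 and 3332 CPM to between 1032 and 1156 CPM. Of 8 macrophage and blood markers 2 had a row, with a summed level of 4.09 to 5.70 CPM in the controls and of 2.16 to 3.12 CPM with RORα, and 1 of them, CD14, fell. Of 6 endothelial markers only PECAM1 had a row, and it fell from 5.88 to 3.16 CPM. Of 11 lens fibre markers 4 had a row, of which BFSP1 fell and HSF4 rose, with a summed level of 13.6 to 17.5 CPM and of 13.4 to 15.8 CPM. Of 6 retinal and pigment cell markers 3 had a row, of which BEST1 rose, with a summed level of 13.2 to 15.8 CPM and of 15.7 to 18.3 CPM. Whether these changes of marker genes have a part in the values below was not tested. In such bulk samples fewer cells of a kind and less RNA per cell cannot be told apart. Whether the replicates came from separate transfections is not in the labels, and p-values measure only the spread between these libraries, which may be technical.

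NFE2L2 (ENSG00000116044, chromosome 2, 177227595 to 177392697, minus strand, GRCh38) encodes NRF2. Its level was 94.6, 99.8, 93.9, 85.2 and 90.1 CPM in EV1 to EV5 and 99.9, 103.8, 83.8, 101.9 and 100.7 CPM in OE1 to OE5. The groups overlapped, because OE3 was the lowest of all 10 libraries while the other 4 overexpression libraries stood above every control, OE1 only just. The means were 92.7 ± 5.45 and 98.0 ± 8.07 CPM (SD, n = 5), and the difference on the log2 scale was 0.08, standard error 0.047 (edgeR adjusted p = 0.149). Its 95% interval ran from -0.01 to 0.17 on the log2 scale, that is from 0.991-fold to 1.13-fold. This non-call rests on OE3: without it the log2 fold change was 0.13 (edgeR adjusted p = 0.00795), and without both OE3 and EV4, the libraries farthest from their own group means, it was 0.10 (edgeR adjusted p = 0.0289). The exact two-sided permutation test of the 10 values gave p = 0.286. Of its annotated exon bases 17.6% are shared with AC019080.1 on the same strand, and 3.18% with AC079305.1 and 0.903% with AGPS on the other, so a part of its counts is uncertain. AGPS fell from 111.6 to 93.9 CPM (-0.25 on the log2 scale, edgeR adjusted p = 3.85e-07), and the other 2 had no row.

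KEAP1 (ENSG00000079999, chromosome 19, 10486120 to 10503741, minus strand) encodes the inhibitor. Its level was 153.7, 149.7, 148.7, 169.1 and 161.6 CPM in EV1 to EV5 and 153.5, 149.6, 168.4, 163.4 and 170.4 CPM in OE1 to OE5. Both groups covered nearly the same range, and the high libraries came from either group. The log2 fold change of 0.04 came with standard error 0.040 (edgeR adjusted p = 0.397), with a 95% interval from -0.04 to 0.12, or 0.975-fold to 1.09-fold. Within a library, the log2 ratio of KEAP1 to NFE2L2 counts was 0.76 ± 0.16 in the controls and 0.72 ± 0.18 with RORα (SD, n = 5). EV4 at 0.99 and OE3 at 1.01 stood above the other 8 libraries, which lay between 0.53 and 0.84. In those 2 libraries NFE2L2 was at its lowest.

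**Figure D1:**
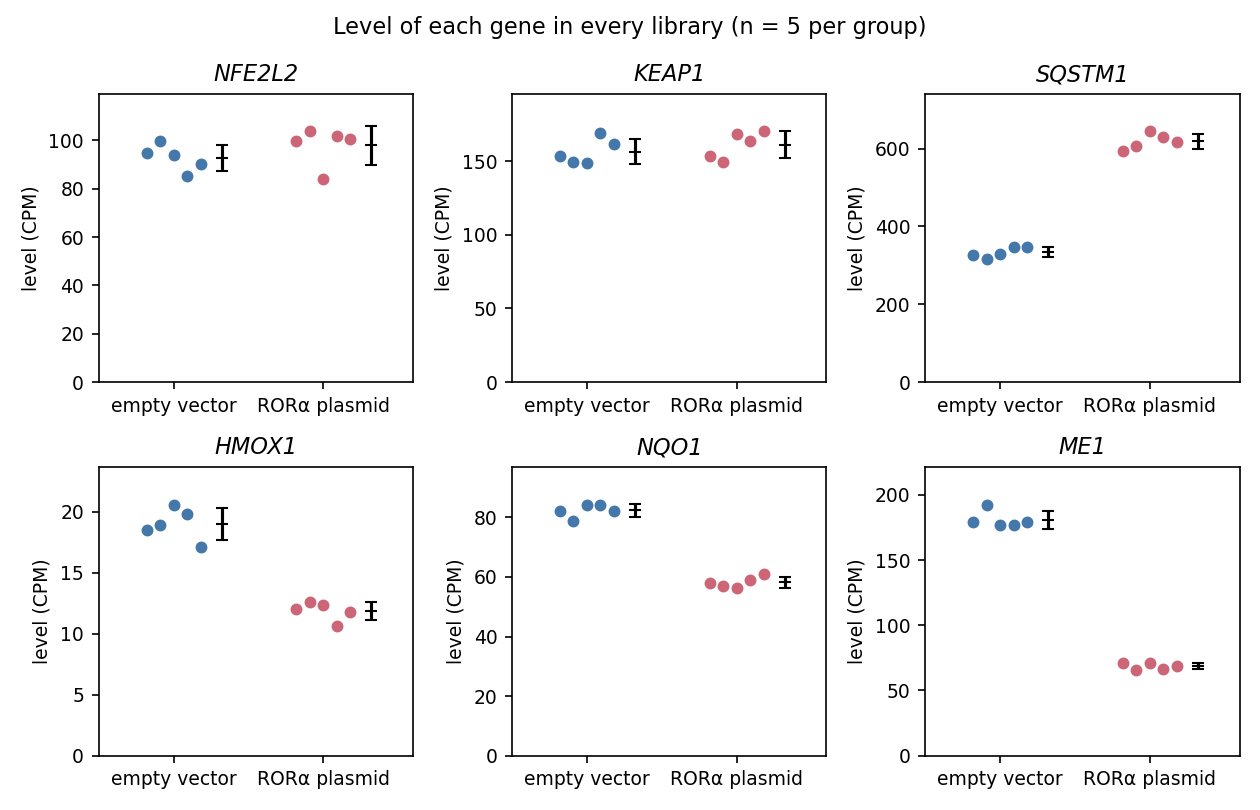
Level of each gene in CPM (vertical axes, from 0) in the 5 empty vector libraries (blue) and the 5 RORα libraries (red), in the order of their numbers, with mean and SD in black. NFE2L2 and KEAP1 overlap between groups, SQSTM1 lies higher in every RORα library, and HMOX1, NQO1 and ME1 lie lower in every RORα library.

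SQSTM1 (ENSG00000161011, chromosome 5, 179806398 to 179838078, plus strand) was the member that rose. Its level was 327.7, 317.1, 328.1, 348.3 and 346.4 CPM in EV1 to EV5 and 593.7, 605.7, 644.6, 629.0 and 617.5 CPM in OE1 to OE5. Every overexpression library stood far above every control, with a gap between the groups several times the range within either. The means were 333.5 ± 13.4 and 618.1 ± 19.8 CPM (SD, n = 5), a log2 fold change of 0.89, standard error 0.030 (edgeR adjusted p = 1.63e-25), and the gene took rank 501 among the rises when all 12520 genes were ordered by log2 fold change. Relative to KEAP1 in the same library, its counts went from a log2 ratio of 1.09 ± 0.036 to 1.94 ± 0.057 (SD, n = 5), that is from 2.13 to 3.84 SQSTM1 counts per KEAP1 count. Of the exon bases annotated to SQSTM1 in GENCODE 29, 20.7% are shared with MRNIP on the opposite strand, and the labels name no step that keeps the strand. MRNIP itself did not pass the test, with 37.4 CPM in the controls, 36.5 CPM with RORα and an edgeR adjusted p of 0.586.

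**Figure D2:**
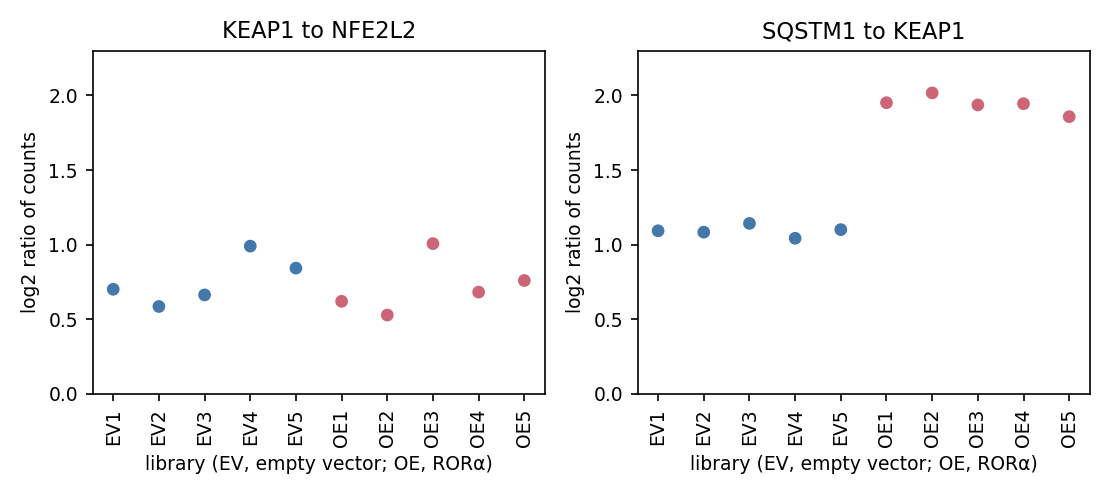
Log2 ratio of the counts of KEAP1 to NFE2L2 (left) and of SQSTM1 to KEAP1 (right) in each library, empty vector in blue and RORα in red. The left ratios overlap between groups, and the right ratios lie between 1.04 and 1.14 in the controls and between 1.86 and 2.02 with RORα.

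ME1 (ENSG00000065833, chromosome 6, 83210389 to 83431071, minus strand) makes NADPH while turning malate into pyruvate, and it fell the most of these genes. Its level was 179.2, 192.6, 176.9, 176.8 and 178.9 CPM in EV1 to EV5 and 70.8, 65.5, 71.1, 66.8 and 68.6 CPM in OE1 to OE5. All controls lay far above all overexpression libraries. On the log2 scale it fell by 1.40, standard error 0.038 (edgeR adjusted p = 5.66e-29), rank 99 among the falls over all genes. EV2 was high for a control, and without it the value was -1.38.

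HMOX1 (ENSG00000100292, chromosome 22, 35380361 to 35394214, plus strand) encodes the inducible enzyme that opens the heme ring to biliverdin, iron and carbon monoxide. Its level was 18.5, 18.9, 20.6, 19.8 and 17.1 CPM in EV1 to EV5 and 12.0, 12.6, 12.3, 10.6 and 11.8 CPM in OE1 to OE5. All overexpression libraries lay below all controls. On the log2 scale the fall was -0.68, standard error 0.076 (edgeR adjusted p = 8.38e-10), with a 95% interval from -0.83 to -0.53. It was the least abundant of the 6, with 186 to 419 counts per library, and had the widest standard error.

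NQO1 (ENSG00000181019, chromosome 16, 69706996 to 69726951, minus strand) encodes an enzyme that reduces quinones by 2 electrons. Its level was 82.2, 78.7, 84.3, 84.1 and 82.3 CPM in EV1 to EV5 and 57.9, 57.0, 56.1, 59.0 and 60.9 CPM in OE1 to OE5. The groups were again fully apart, with little spread within either. The change on the log2 scale was -0.50, standard error 0.041 (edgeR adjusted p = 2.40e-13). A gene annotated antisense to it, AC092115.2, shares 17.7% of its exon bases, and that gene had no row in the table. For SQSTM1, ME1, HMOX1 and NQO1 alike the exact permutation test gave p = 0.00794, the smallest that 5 against 5 libraries allow. All 4 also passed when edgeR tested for a change beyond 1.2-fold (glmTreat adjusted p from 8.71e-27 for ME1 to 3.02e-06 for HMOX1).

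**Figure D3:**
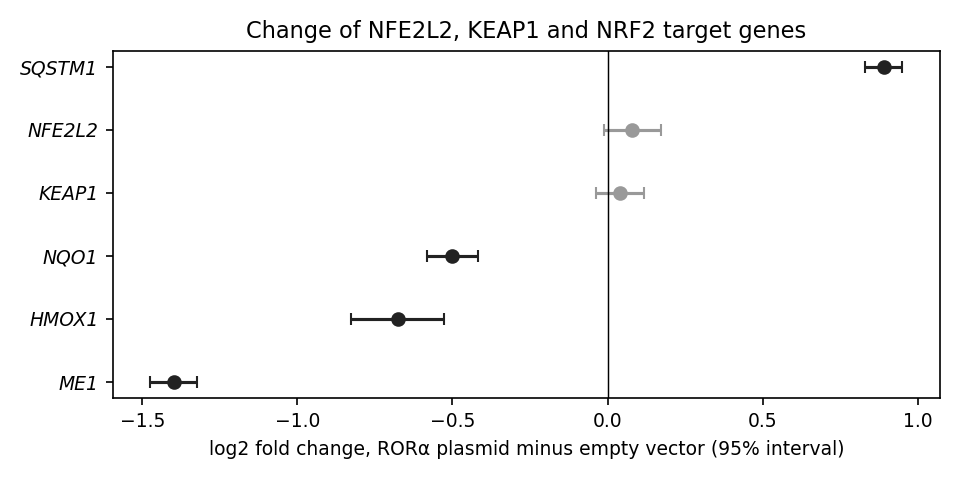
Log2 fold change of each gene, RORα minus empty vector (horizontal axis), with its 95% interval. Black points passed an adjusted p of 0.05 and grey points did not. SQSTM1 lies at 0.89, NFE2L2 and KEAP1 at 0.08 and 0.04, and NQO1, HMOX1 and ME1 at -0.50, -0.68 and -1.40.

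On a scale that takes length into account, CPM per kilobase of the longest principal transcript in GENCODE 29, the order of the levels changed at ME1. The order holds for this choice of length only. All annotated exon bases together come to 7654 for SQSTM1 and 5979 for NFE2L2, against 2986 and 2853 for the transcript. For ME1 both lengths are 3371. In the controls SQSTM1 was highest at 111.7 ± 4.48, followed by ME1 at 53.7 ± 1.97, KEAP1 at 53.0 ± 2.93, NFE2L2 at 32.5 ± 1.91, NQO1 at 28.3 ± 0.765 and HMOX1 at 10.4 ± 0.723 CPM per kilobase (SD, n = 5). ME1 and KEAP1 did not differ there beyond their spread. With RORα the order was SQSTM1 at 207 ± 6.64, KEAP1 at 54.5 ± 3.09, NFE2L2 at 34.4 ± 2.83, ME1 at 20.3 ± 0.722, NQO1 at 19.99 ± 0.639 and HMOX1 at 6.51 ± 0.413 CPM per kilobase. ME1 and NQO1 were then the neighbours that did not differ beyond their spread. The FPKM values that the authors deposited give another order, with NFE2L2 last at a mean of 0.571 in the controls, and they were not used for it. Those values imply a length of 162152 bases for NFE2L2, against 2853 for its transcript, but of 3340 for ME1, against 3371. For the other 4 genes the implied length was 3.22 to 6.00 times that of the transcript.

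By a rule of likeness, the root mean square difference over the 10 libraries between log2 levels centred on each gene's own mean, the genes closest to each member were as follows. Closest to ME1 were HTRA1, a secreted serine protease, at 0.062 log2 units and WNT5A, a secreted WNT ligand, at 0.066. Next to SQSTM1 stood SLC3A2, the heavy chain shared by several amino acid transporters including the cystine exchanger, at 0.039 and ZMIZ2 at 0.042. For HMOX1 they were POP1, a subunit of ribonuclease P, at 0.079 and the bicarbonate transporter SLC4A8 at 0.084, and for NQO1 the lipid phosphatase SYNJ2 at 0.027 and BIN1, a membrane-bending protein, at 0.033. ZNF280C at 0.036 and C5orf24 at 0.044 lay closest to NFE2L2, and PRKCSH, a glucosidase subunit, at 0.027 and PYGB, a glycogen phosphorylase, at 0.030 to KEAP1. Over so many genes some profile is always near, so these distances describe the table only.

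The list counts below stand beside 28.6% of all genes called higher and 27.5% called lower. A share near these is no result about a list. Around NFE2L2, of 12 genes of the NRF2 family, small MAF partners, BACH repressors and coactivators, 6 rose and 3 fell. That is 75.0% called beside 56.1% of all genes, and the median log2 fold change was 0.12. MAFF, a small MAF protein that lacks an activation domain, rose from 36.2 ± 1.67 to 75.0 ± 3.00 CPM (SD, n = 5; log2 fold change 1.05, edgeR adjusted p = 1.29e-21). BACH1, which with small MAF proteins represses HMOX1 and other genes with antioxidant elements until heme displaces it, rose from 79.8 ± 6.11 to 139.0 ± 6.23 CPM (0.80, edgeR adjusted p = 8.33e-19). NFE2L3, which encodes NRF3, rose from 82.8 to 148.9 CPM, and BACH2, at a low level, from 1.42 to 2.77 CPM. NFE2L1, which encodes NRF1 (picked with its values in view), rose from 774.9 to 1009 CPM. The 3 that fell, picked in the same way, were MAFK, CREBBP and CHD6, with log2 fold changes of -0.13, -0.21 and -0.14. The groups overlapped for CHD6.

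Around KEAP1, 4 of 17 genes of its ubiquitin ligase and of NRF2 turnover rose and 7 fell. That is 64.7% called beside 56.1% of all genes, with a median log2 fold change of -0.04. CUL3, the scaffold that KEAP1 recruits, fell from 81.3 ± 2.94 to 54.2 ± 0.890 CPM (SD, n = 5; log2 fold change -0.59, edgeR adjusted p = 3.04e-15), while the level of RBX1, the ring subunit chosen after its values were seen, was 53.9 and 55.1 CPM (0.03, edgeR adjusted p = 0.586). TRIM21, a ubiquitin ligase that modifies SQSTM1, rose from 14.5 to 25.5 CPM. AMER1, a KEAP1-binding protein, rose from 21.1 to 31.4 CPM. SYVN1, a ligase of the endoplasmic reticulum that can target NRF2, rose from 68.9 to 78.8 CPM. The other called genes of this list, picked with their values in view, changed less. CAND1, FBXW11, CUL1, GSK3B, DCAF11 and PALB2 fell, with log2 fold changes from -0.19 (PALB2) to -0.11 (GSK3B). USP11 rose, with a log2 fold change of 0.15.

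Beside SQSTM1, 9 of 15 autophagy receptors and partners rose and 3 fell. That is 80.0% called beside 56.1% of all genes, with a median log2 fold change of 0.10. GABARAPL1, one of the ATG8 proteins that receptors such as SQSTM1 bind, rose from 67.2 to 105.4 CPM (0.65 on the log2 scale, edgeR adjusted p = 9.02e-17). Among receptors, CALCOCO2 went up from 230.7 to 324.3 CPM and OPTN from 163.3 to 224.0 CPM. So did ULK1, the kinase that starts autophagy, from 114.9 to 143.0 CPM. The rises of NBR1, PRKCI and TOLLIP, picked with their values in view, were small, with overlapping groups and log2 fold changes of 0.08, 0.10 and 0.11. Without EV2, EV4 or OE2 the list had 7 rises, and a test against 1.2-fold left 3 rises and 0 falls. The 3 that fell were picked with their values in view. GABARAPL2, another ATG8 protein, fell from 72.0 to 63.2 CPM and TBK1 from 42.9 to 36.8 CPM. WDFY3 fell from 97.0 to 86.5 CPM with overlapping groups.

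Beside HMOX1, 5 of 15 genes of heme synthesis, breakdown and transport rose and 1 fell. That is 40.0% called beside 56.1% of all genes, with a median log2 fold change of 0.04. BLVRA, which reduces the biliverdin that heme oxygenase makes (picked with its values in view), rose from 90.3 to 100.3 CPM (0.15 on the log2 scale, edgeR adjusted p = 0.00169). BLVRB, a flavin reductase that also reduces other biliverdin isomers, rose from 56.9 to 81.8 CPM (0.52 on the log2 scale, edgeR adjusted p = 1.70e-12), the heme transporter SLC48A1 from 14.0 to 20.5 CPM, and PPOX, of heme synthesis, from 8.44 to 13.1 CPM. UROS, also of heme synthesis, fell from 79.8 to 67.7 CPM. HMOX2, the constitutive heme oxygenase, chosen after its values were seen, had 67.7 CPM in the controls and 67.3 CPM with RORα (-0.01, edgeR adjusted p = 0.907).

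Beside NQO1, 2 of 9 genes of quinone reduction rose and 1 fell. That is 33.3% called beside 56.1% of all genes, with a median log2 fold change of -0.01. AIFM2, which reduces ubiquinone at membranes, rose from 99.4 to 118.2 CPM (log2 fold change 0.25, edgeR adjusted p = 7.36e-07). CRYZ, a quinone reductase, rose from 23.3 to 26.3 CPM and CBR1, a carbonyl reductase, fell from 42.4 to 37.9 CPM, but each had overlapping groups and lost its call without single libraries, CRYZ without EV5 (edgeR adjusted p = 0.0948) or OE2 (0.0876) and CBR1 without EV1 (0.0679), EV2 (0.0664) or OE4 (0.0589). NQO2, the paralog of NQO1, chosen after its values were seen, was at 24.6 and 23.0 CPM (-0.10, edgeR adjusted p = 0.236).

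Beside ME1, 6 of 15 other genes listed around NADPH production rose and 4 fell. That is 66.7% called beside 56.1% of all genes, with a median log2 fold change of 0.03. NADK2, the mitochondrial NAD kinase, fell from 136.2 ± 5.05 to 32.6 ± 2.16 CPM (SD, n = 5; log2 fold change -2.06, edgeR adjusted p = 5.08e-32). TKT, a transketolase that does not itself make NADPH, fell from 346.5 to 275.7 CPM. The list holds other such genes, so its counts are not those of NADPH-making enzymes alone. ME3, the mitochondrial malic enzyme that uses NADP, rose from 15.8 to 19.6 CPM (0.31, edgeR adjusted p = 0.000290), the opposite direction to ME1. ME2, the other mitochondrial form (picked with its values in view), rose from 27.0 to 30.7 CPM with overlapping groups (0.18, edgeR adjusted p = 0.0100).

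SRXN1 reduces overoxidised peroxiredoxins, and of 10 genes of peroxiredoxins, thioredoxins and sestrins 3 rose and 3 fell. That is 60.0% called beside 56.1% of all genes, with a median log2 fold change of -0.02. SESN2, a sestrin, rose from 28.9 to 88.9 CPM (1.62, edgeR adjusted p = 6.50e-27) and PRDX5 from 108.8 to 125.7 CPM. PRDX1 and PRDX3, whose products are substrates of sulfiredoxin, fell from 238.7 to 200.5 CPM and from 219.3 to 198.3 CPM.

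**Figure D4:**
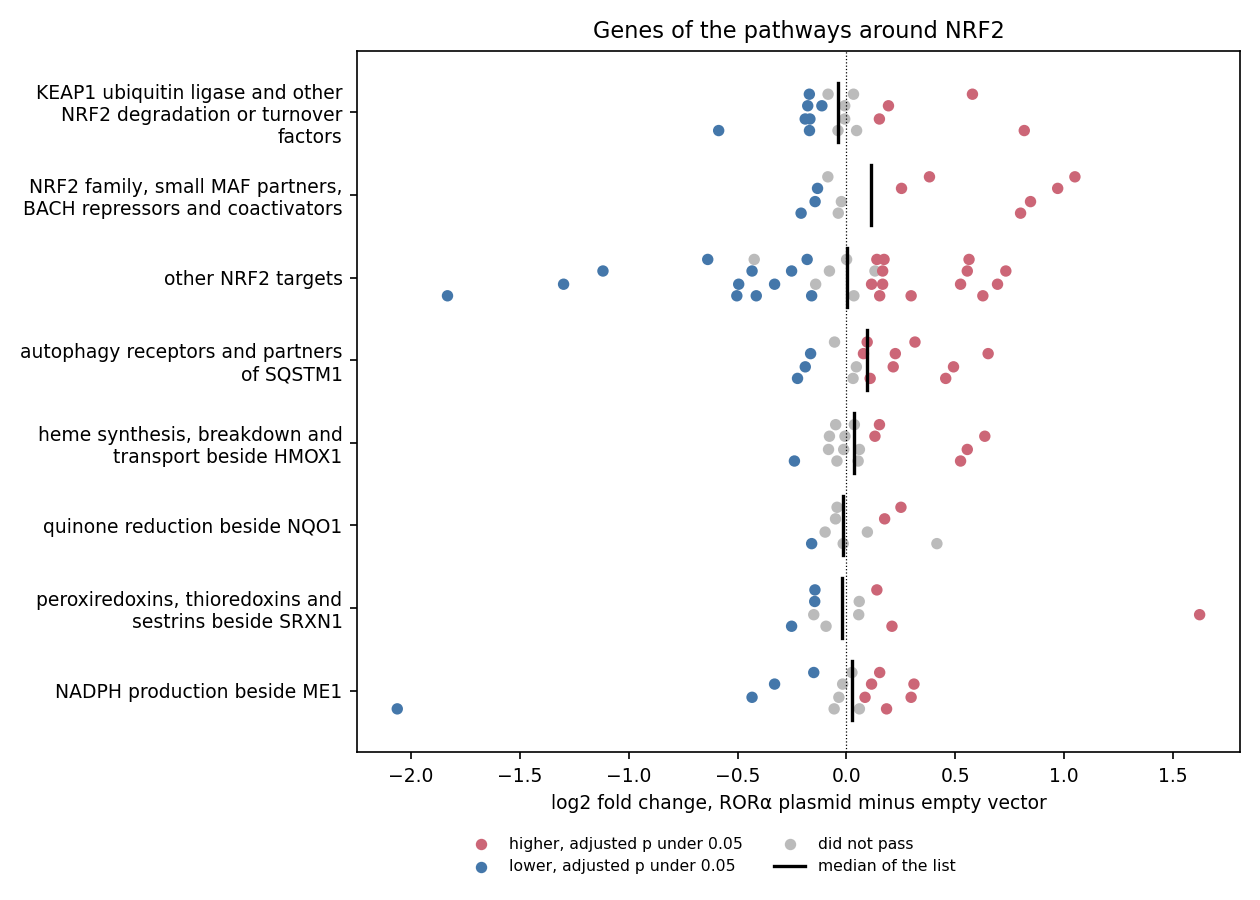
Log2 fold change, RORα minus empty vector (horizontal axis), of each gene on 8 lists around NRF2, with the median of each list as a black bar. Red and blue points passed an adjusted p of 0.05 and grey points did not; the medians lie between -0.04 and 0.12, and NADK2 at -2.06 and SESN2 at 1.62 mark the ends.

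The other NRF2 targets also went both ways. Of 31 with a row, of 37 listed, 13 rose and 12 fell, while 6 did not pass. That is 80.6% called beside 56.1% of all genes. The 31 genes had a median log2 fold change of 0.00, the same as that of all genes. AKR1C3 and AKR1C1, aldo-keto reductases, had log2 fold changes of -1.83 and -1.30, and their close sequences make the single values uncertain. ABCB6, a porphyrin transporter, fell from 1.02 to 0.469 CPM with overlapping groups, and ABCC3, an exporter of conjugates, rose from 14.0 to 23.2 CPM. Over all 8 lists together, each gene counted once, 42 of 113 genes rose and 30 fell, 63.7% beside the 56.1% of all genes.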

How the data were processed

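Messenger RNA of 10 libraries was measured, 5 per group. Per the file headers, the authors deposited raw counts and FPKM per gene and library. The submitters' processing notes name HISAT2 2.2.1, HTSeq and GRCh38; annotation release, strand setting and the filter behind the 12540 genes are not given in the sources used here. Groups, dose and times came from the labels. Genes passing filterByExpr (minimum count 10, minimum total 15; 12520 kept, 20 left out) were scaled by TMM (factors 0.991 to 1.01) and fitted with edgeR 4.0.16 (glmQLFit, glmQLFTest, two-sided) in R 4.3.3, with Benjamini-Hochberg adjustment and a threshold of 0.05. Standard errors are the log2 fold change over the root of F, and 95% intervals are normal. Biological coefficient of variation was 4.57%. A count of 0 allows up to 3 counts, 0.137 to 0.172 CPM, which covers counting error alone (no molecular identifiers are named). Positions, lengths and overlaps came from GENCODE 29 (GRCh38) and sequences from RefSeq.

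The genes and lists were chosen with earlier results of these data known. Named genes are the 6 members, RORA, up to 4 called genes per list by size of change, and the 2 genes nearest each member on log2(CPM + 0.1); others are said to be chosen after their values were seen. A gene that this rule names is not reported here. The members entered no test of their own beyond the fit over all genes and exact permutation tests in SciPy 1.17.1. Alternatives were DESeq2 1.42.0, its size factors, upper-quartile scaling, no filter, a block for the replicate number, omission of libraries, limma 3.58.1 on log2(FPKM + 1) and log2(FPKM + 0.1) of genes whose mean FPKM reached 1 or, with pseudocount 1, of all genes, and glmTreat at 1.2-fold. Replicate numbers are not said to pair libraries, so the libraries were treated as unpaired. Same-number libraries had residual correlations of -0.0495 to 0.0540. No replicates were copies (chi-square per degree of freedom 2.28 to 5.73 within groups). By this measure OE3 lay nearest OE5 (2.52) and farthest from OE2 (5.73). EV4 lay nearest EV5 (3.01) and farthest from EV3 (5.17). What sets these libraries apart was not tested. The fit was also run on counts simulated with its own dispersions and with independent libraries. Such counts cannot show how the fit handles libraries like OE3 and EV4.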

Additional observations from a re-analysis of the deposited data

Results flagged for a closer look

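In groups of 5 libraries, 1 value was set apart when its gap to the next exceeded 0.71 of the range of the group (Dixon's criterion at 95%). Of 100 groups from 50 genes, 6 met this. The genes share the same 10 libraries, and some were named for likeness to a member. The number can therefore not be set against chance. NFE2L2 stood at 83.8 CPM in OE3, with the next library of its group at 99.9 CPM, and this library decides its call. AMER1 at 26.1 CPM and ZNF280C at 15.3 CPM were also low in OE3, the latter having been named for its likeness to NFE2L2. ME1 stood at 192.6 CPM in EV2, above 179.2 CPM in the next control. CBR1 was low in EV3 at 35.6 CPM and BIN1 high in OE5 at 65.5 CPM.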

How the results depend on the processing

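HMOX1, NQO1, SQSTM1, ME1 and KEAP1 kept their direction and their side of the threshold in all 19 alternative settings that give single genes a value. On counts their log2 fold changes ran from -0.71 to -0.64 for HMOX1, -0.52 to -0.48 for NQO1, 0.87 to 0.91 for SQSTM1, -1.42 to -1.38 for ME1 and 0.02 to 0.07 for KEAP1. On log2(FPKM + 1), which understates changes of low genes, that of HMOX1 was down to -0.43. NFE2L2 changed its call in 2 of its 17 settings. Leaving out single libraries, its log2 fold change ran from 0.052 (without EV4) to 0.13 (without OE3) and the number of members that rose from 1 to 2. Leaving out EV4 and OE3 together, a choice made after seeing the data, gave NFE2L2 a log2 fold change of 0.10 and 2 rises. It had no value under the filter on mean FPKM, since its deposited FPKM lies below 1. Testing against 1.2-fold left 2475 of 7026 called genes, 1469 higher and 1006 lower, and 28 of 72 called list genes, 17 higher and 11 lower, as that test asks for a larger change; the 4 called members still passed. With the replicate block 6950 genes and the same 4 members were called, and it changed no other call reported here. Of 824 results for 44 other named genes, 815 stayed on their side of the threshold, 7 lost their call and 2, both of PYGB, gained one. Of the 6 members HMOX1 has the fewest counts and the widest standard error; among the other named genes ABCB6, BACH2, AKR1C3 and PPOX lie lower, with wider ones.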
